A study of Homo sapiens with 72 samples.

Results

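The genes followed here are 10 members of the TNF receptor superfamily, taken out of 60371 genes listed in population RNA-seq of U2OS, a human osteosarcoma cell line. They are TNFRSF9, TNFRSF1B, TNFRSF12A, LTBR and CD40, whose tails bind TRAF adaptors, TNFRSF1A, TNFRSF10A and TNFRSF21, which carry a death domain, and TNFRSF10D and TNFRSF11B, which bind ligand without a working death domain. They were chosen by name, with earlier results of these data known, among them that TNFRSF9 falls under 10000 nM MK-2206. The MK-2206 10000 nM values of the 10 genes are therefore given as a description, with no test. The U2OS cells were treated for 12 h in 72 wells. Of these, 18 wells received DMSO, the solvent, and 54 received 1 of 6 compounds at 100, 1000 or 10000 nM, with 3 wells for each compound and dose. Triptolide blocks transcription initiation and homoharringtonine blocks translation elongation. MK-2206 is an allosteric AKT inhibitor, nilotinib a BCR-ABL tyrosine kinase inhibitor, pyrazolanthrone a JNK inhibitor and miglitol an intestinal alpha-glucosidase inhibitor. All wells held the same line and were harvested at the same time, and the labels do not say which wells shared a plate or a day, so the spread between wells may be partly technical.

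On GRCh38, in the GENCODE annotation, TNFRSF9 (ENSG00000049249) lies at chr1:7915871-7943165 and TNFRSF1B (ENSG00000028137) at chr1:12166991-12209228. TNFRSF1A (ENSG00000067182, chr12:6328757-6342114) and LTBR (ENSG00000111321, chr12:6375045-6391571) are neighbours on chromosome 12. TNFRSF12A (ENSG00000006327) lies at chr16:3018445-3022383, CD40 (ENSG00000101017) at chr20:46118271-46129863 and TNFRSF21 (ENSG00000146072) at chr6:47231532-47309905. TNFRSF10A (ENSG00000104689), TNFRSF10D (ENSG00000173530) and TNFRSF11B (ENSG00000164761) are on chromosome 8. All 10 are protein-coding genes, and each value is for the whole gene, over its exons.

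TNF receptors are cell surface proteins that bind trimeric ligands of the TNF family. Receptors with a TRAF-binding tail recruit TRAF adaptors and, through kinases such as IKBKB, CHUK and MAP3K14, activate the transcription factor NF-kappaB. Receptors with a death domain recruit TRADD or FADD and can start caspase cleavage, and decoy receptors hold the ligand without passing on its signal. In bone the soluble decoy TNFRSF11B, osteoprotegerin, is made by osteoblasts and restrains osteoclasts by binding the RANK ligand TNFSF11. TNFRSF9 is best known as a costimulatory receptor of activated T cells.

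For 5 of the 10 genes a RefSeq promoter window was at hand, the 250 bases before the start site on GRCh38.p14, and 3 of them are shown because the transcripts moved in different ways. TNFRSF9 showed the largest rise of the well-counted members, TNFRSF1A fell under both triptolide and homoharringtonine, and LTBR was called lower under homoharringtonine and not called against DMSO under triptolide. Both strands were searched for the NF-kappaB consensus, the AP-1 motif TGANTCA, the GC box GGGCGG and the TATA box TATAAA, and the capitals mark every match, the GC boxes reading as CCGCCC because they lie on the reverse strand. TNFRSF9 is shown at chr1:7940840-7941089 (minus strand), TNFRSF1A at chr12:6342077-6342326 (minus strand) and LTBR at chr12:6383912-6384161 (plus strand), each read 5′ to 3′ along its gene.
TNFRSF9: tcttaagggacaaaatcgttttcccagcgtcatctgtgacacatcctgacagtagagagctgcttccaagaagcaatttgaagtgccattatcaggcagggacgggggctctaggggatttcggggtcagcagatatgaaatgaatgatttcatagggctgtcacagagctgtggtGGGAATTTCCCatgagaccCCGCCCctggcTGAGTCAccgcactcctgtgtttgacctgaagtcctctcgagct
TNFRSF1A: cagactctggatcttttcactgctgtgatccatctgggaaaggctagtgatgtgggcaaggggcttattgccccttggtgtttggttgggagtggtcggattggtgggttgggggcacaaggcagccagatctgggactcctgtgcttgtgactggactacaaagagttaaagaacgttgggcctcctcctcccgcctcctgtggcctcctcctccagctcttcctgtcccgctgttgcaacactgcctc
LTBR: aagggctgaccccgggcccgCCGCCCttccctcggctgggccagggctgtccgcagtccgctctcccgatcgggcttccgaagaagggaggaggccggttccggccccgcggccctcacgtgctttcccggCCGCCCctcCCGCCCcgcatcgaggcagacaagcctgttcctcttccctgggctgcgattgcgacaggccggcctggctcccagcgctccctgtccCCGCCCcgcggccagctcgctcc
The TNFRSF9 window held the NF-kappaB consensus on both strands, the matches overlapping and beginning at bases -74 and -73 from the start site. It also held a GC box at -55 and an AP-1 motif at -44, within the same short stretch. The LTBR window held 4 GC boxes and none of the other motifs, and the TNFRSF1A window held none of the 4 motifs. Of the windows not printed, TNFRSF1B held 2 GC boxes and TNFRSF21 held 1. Among 35116 promoter windows of the same length 9.96% held the NF-kappaB consensus, 6.57% the AP-1 motif, 42.64% the GC box and 10.72% the TATA box. The RefSeq start sites of TNFRSF9 and LTBR lay 2326 and 9117 bases inside the outermost start that GENCODE gives these genes. A match describes the letters in this window and is not evidence that a factor binds there.

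The libraries held between 70767 and 68296309 expected counts, with a median of 38.369 mil. Of the 72 libraries, 3 held under 10 mil: triptolide 100 nM replicate 2 with 70767, DMSO replicate 10 with 460014 and triptolide 1000 nM replicate 1 with 9628355. The other libraries began at 10.514 mil. In triptolide 100 nM replicate 2 a count of 0 allows a level of up to 36.1 CPM, and in DMSO replicate 10 up to 5.26 CPM, both covering counting error only. The mitochondrially encoded mRNAs took a median of 0.2345% of the counts in DMSO (0.138% to 0.367%), and 0.518% to 0.625%, 0.768% to 1.087% and 1.007% to 1.151% in triptolide at 100, 1000 and 10000 nM. Taken over all genes tested, scaling to these mRNAs moved the median log2(Fold Change) by -1.66, -2.47 and -2.76 at the 3 triptolide doses, and scaling to library sizes alone moved it by -0.34, -0.46 and -0.53. At 10000 nM triptolide the split of calls, 3005 higher and 5602 lower after TMM scaling, became 785 and 7599 by library sizes and 8 and 18041 by mitochondrial mRNAs. Rises under triptolide are therefore relative to the other polyadenylated RNA in the well, and fewer cells and less RNA per cell cannot be told apart in these bulk samples. The mesenchymal and bone genes VIM, SPARC, COL1A1 and CDH2 had DMSO medians of 1868, 2137, 452 and 75.9 TPM, RUNX2 was at 3.805 TPM and TWIST1 was listed at 0. Of 4 epithelial markers EPCAM (2.38 TPM) and KRT14 (1.6 TPM) exceeded 1 TPM, and of 3 endothelial markers none did, the highest being 0.29 TPM. The leukocyte marker CD3E was listed at a median of 0, and PTPRC and CD14 at 0.035 and 0.18 TPM. These leukocyte genes stood at or near 0 in a line that expressed the lymphocyte receptors TNFRSF9 and CD40.

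In DMSO wells the 10 receptors spanned a very wide range of levels, compared here in TPM, which is corrected for transcript length. TNFRSF12A, the receptor of the TWEAK ligand TNFSF12, was the highest at 462 TPM (380 to 557 over 18 wells) and overlapped no other receptor. TNFRSF1A, the main receptor for TNF, followed at 128 TPM (109 to 205). LTBR, the lymphotoxin beta receptor that signals through MAP3K14, stood at 67.2 TPM (47.8 to 132). These neighbours overlapped in range only through the shallow DMSO replicate 10, and TNFRSF1A exceeded LTBR in 18 of 18 wells. Without replicate 10 TNFRSF1A ranged from 109 to 175 TPM and LTBR from 47.8 to 81.9 TPM. CD40, the costimulatory receptor of B cells and macrophages, was at 53.8 TPM (47.8 to 63.5), below LTBR in 18 of 18 wells. TNFRSF21, a death receptor widely found in tissues, was at 9.97 TPM (8.52 to 12.6). TNFRSF9 at 4.14 TPM (2.93 to 11.9) and TNFRSF11B at 4.005 TPM (1.31 to 7.12) could not be ordered, since TNFRSF9 was the higher in 9 of 18 wells. Their ranges were 2.93 to 5.16 and 2.29 to 7.12 TPM without replicate 10. Below them stood TNFRSF1B, the second TNF receptor, at 0.1 TPM (0 to 0.41), and TNFRSF10D, a decoy receptor for the TRAIL ligand TNFSF10, at 0.01 TPM (0 to 0.08). The TRAIL receptor TNFRSF10A was listed at 0 in most wells, with 1 count in all 18 DMSO wells together.

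**Figure D1:**
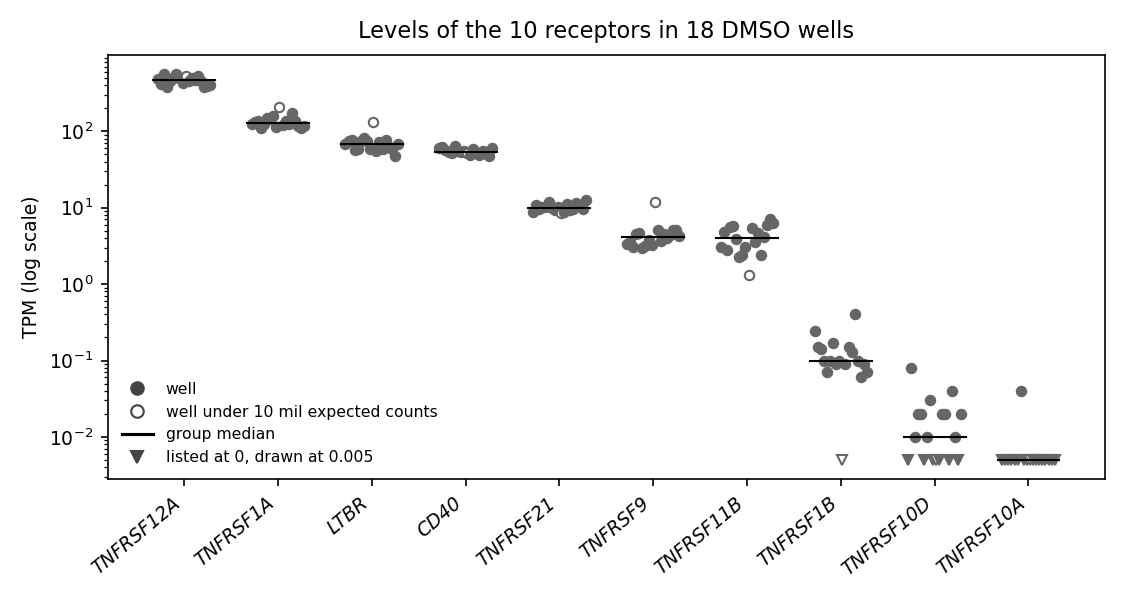
Levels of the 10 receptors in the 18 DMSO wells, in TPM on a log axis, where each point is a well, open points are libraries under 10 mil, triangles are wells listed at 0 and bars are medians. TNFRSF12A, with a median of 462 TPM, lies above every other receptor, and TNFRSF9 and TNFRSF11B lie on top of each other near 4 TPM.

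TNFRSF9 was raised by homoharringtonine and by the highest dose of nilotinib and lowered by MK-2206. In DMSO its TMM-scaled level was 10.4 CPM at the median, 8.18 at the lowest and 24.5 at the highest. The highest was DMSO replicate 10, where it rested on 14 counts, and the other 17 DMSO wells stood between 8.18 and 11.7 CPM. That shallow library was also high in several NF-kappaB target and pathway genes: TRAF1 had 22.8 CPM there against 2.31 to 4.41 in the other DMSO wells, BIRC3 26.3 against 0.814 to 4.88, and TNFAIP3 40.3 against 4.83 to 6.81. MAP3K14 had 92.9 CPM against 25.2 to 52.0, and CYLD, at 33.3 CPM, was inside the 22.3 to 42.0 of the others. Comparisons of TNFRSF9 are therefore given with and without it where that well decides the overlap.

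Homoharringtonine wells held far more TNFRSF9 than any DMSO well. The 3 wells had 201, 184 and 182 CPM at 100 nM, 153, 171 and 191 CPM at 1000 nM, and 124, 133 and 127 CPM at 10000 nM. All 9 wells stood above the highest DMSO well. The log2(Fold Change) was 4.22 (SE 0.11) at 100 nM, 4.06 (SE 0.11) at 1000 nM and 3.61 (SE 0.11) at 10000 nM, or 18.6-fold, 16.7-fold and 12.2-fold (edgeR quasi-likelihood test with Benjamini-Hochberg adjustment over all genes tested, padj = 4.40e-20, 4.96e-19 and 1.66e-18). That test and adjustment stand behind every padj below, and a gene was called when padj was under 0.05 and the log2(Fold Change) was above 1 or below -1.

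Nilotinib raised TNFRSF9 at its highest dose. The wells had 71.9, 57.2 and 52.3 CPM at 10000 nM, all above every DMSO well, a log2(Fold Change) of 2.56 (SE 0.12, padj = 1.96e-13) or 5.91-fold. At 100 nM the wells had 9.62, 6.48 and 6.47 CPM (log2(Fold Change) -0.46, padj = 0.104) and at 1000 nM 12.8, 8.85 and 11.4 CPM (0.09, padj = 0.854). The lower of these groups reached below the DMSO range and the other overlapped it.

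MK-2206 wells held less TNFRSF9 than any DMSO well at 1000 and 10000 nM. At 100 nM they had 8.05, 5.75 and 8.28 CPM (log2(Fold Change) -0.51, SE 0.16, padj = 0.337), overlapping DMSO. At 1000 nM they had 3.52, 4.98 and 3.07 CPM, all below every DMSO well, a log2(Fold Change) of -1.41 (SE 0.18, padj = 8.99e-05) or 2.66-fold lower. With the replicate number as a block against DMSO replicates 1 to 3 the value was -1.27 and the call was lost (padj = 0.123). Without the shallow DMSO well it was -1.40 (padj = 4.92e-06). At 10000 nM, the dose that chose the set, the wells had 3.19, 3.08 and 2.85 CPM, a log2(Fold Change) of -1.77. The 3 MK-2206 doses share the 18 DMSO wells, so the 1000 nM result is not independent of the one that chose the gene.

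Under triptolide the relative level of TNFRSF9 was higher at the upper doses, and this direction depended on the scaling. At 100 nM the deep wells had 10.6 and 10.6 CPM and replicate 2 had 0 counts, which at its depth says little (log2(Fold Change) 0.01, padj = 0.967). At 1000 nM the wells had 18.7, 15.6 and 25.8 CPM (0.95, SE 0.16, padj = 1.03e-05), just short of a call and called at 1.02 without the shallow libraries. At 10000 nM they had 24.6, 26.7 and 21.96 CPM, a call at 1.20 (SE 0.14, padj = 2.45e-08), although scaling to mitochondrial mRNAs turned it to -1.58 and library sizes alone gave 0.67. The wells at 1000 and 10000 nM stood above the DMSO wells only when DMSO replicate 10 was left out.

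The other 2 compounds moved TNFRSF9 little. Pyrazolanthrone wells had 7.25, 7.27 and 6.55 CPM at 100 nM (log2(Fold Change) -0.52, padj = 0.0660), below every DMSO well without passing the test. They had 14.7, 13.6 and 13.9 CPM at 10000 nM (0.42, padj = 0.0792), above the DMSO wells other than replicate 10. At 1000 nM the log2(Fold Change) was -0.28 (padj = 0.931). Miglitol wells gave log2(Fold Change) values of -0.24, -0.44 and -0.03 and overlapped DMSO at every dose.

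**Figure D2:**
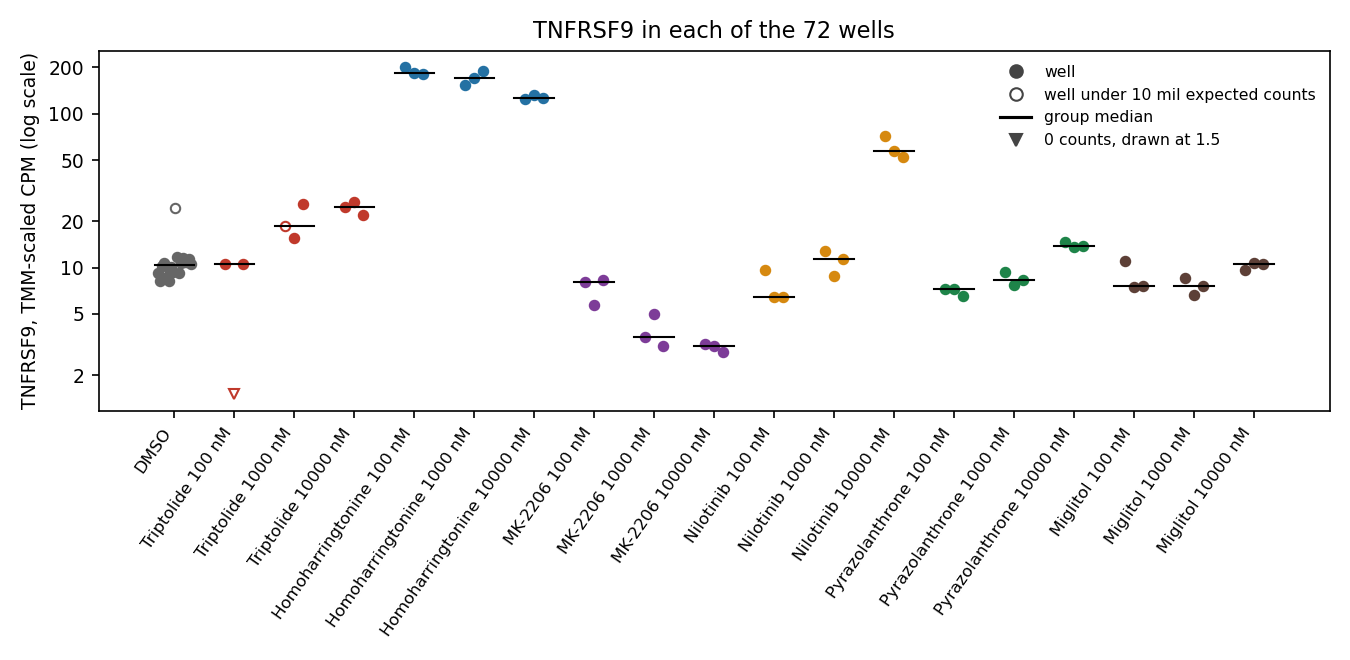
TNFRSF9 in each of the 72 wells, in TMM-scaled CPM on a log axis, by compound and dose, where open points are libraries under 10 mil, a triangle is a well with 0 counts and bars are group medians. Homoharringtonine wells stand between 124 and 201 CPM and nilotinib 10000 nM wells between 52.3 and 71.9 CPM, above all DMSO wells, and MK-2206 wells at 1000 and 10000 nM stand below all DMSO wells. The higher triptolide values reverse against DMSO when wells are scaled to mitochondrial mRNAs.

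Counted over the 10 receptors, triptolide gave 0 higher and 2 lower calls at 100 nM, 1 and 3 at 1000 nM, and 2 and 3 at 10000 nM, with 8 members tested at each dose. Of all genes tested, 11.4% were called higher and 20.9% lower at 100 nM, 13.9% and 30.4% at 1000 nM, and 16.2% and 30.2% at 10000 nM. For the 0 at 100 nM, 1 member was higher at an unadjusted p under 0.05 in edgeR, and DESeq2 called 0. The members' median log2(Fold Change) was -0.30, 0.03 and 0.03, beside -0.16, -0.21 and -0.17 for all genes. Without TNFRSF1B, which held 1 count at each triptolide dose, it was -0.02, 0.25 and 0.52. Homoharringtonine gave 3 higher and 2 lower calls among 8 members at 100 nM, 3 and 3 at 1000 nM, and 2 and 3 at 10000 nM. TNFRSF10D is left out of these counts, since it was tested only at the higher doses, where the treated wells carried it past the filter on low counts. The background there was 15.6% higher and 19.3% lower at 100 nM, 21.5% and 20.9% at 1000 nM, and 23.6% and 23.4% at 10000 nM. The members' median was 0.38, 0.0015 and -0.07, beside -0.03, -0.01 and -0.05 for all genes, and 0.24, -0.41 and -0.30 without TNFRSF1B. These medians thus depend on a scarce member. With so few members these counts single out no difference from the background.

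TNFRSF12A moved in opposite directions under these compounds. Triptolide wells had 49.4, 84.3 and 58.4 CPM at 100 nM, 83.7, 92.7 and 67.1 CPM at 1000 nM, and 73.1, 72.2 and 60.4 CPM at 10000 nM, where DMSO wells ranged from 184 to 344 with a median of 265. Every triptolide well was below every DMSO well, the shallow one resting on 7 counts. The log2(Fold Change) was -2.21 (SE 0.20, padj = 2.07e-09), -1.69 (SE 0.17, padj = 3.49e-09) and -1.97 (SE 0.17, padj = 1.09e-10). Homoharringtonine wells had 1143, 1204 and 1497 CPM at 100 nM, 1616, 1168 and 926 CPM at 1000 nM, and 877, 861 and 687 CPM at 10000 nM. All were above every DMSO well, with log2(Fold Change) values of 2.32 (SE 0.12, padj = 3.43e-14), 2.25 (SE 0.14, padj = 4.25e-13) and 1.61 (SE 0.12, padj = 1.40e-11). TNFRSF12A overlaps CLDN6 on the opposite strand over 1627 bases, and CLDN6 had a DMSO median of 0.74 TPM.

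LTBR fell under homoharringtonine. The wells had 27.1, 31.1 and 37.6 CPM at 100 nM, 31.3, 19.5 and 17.98 CPM at 1000 nM, and 22.4, 21.8 and 19.7 CPM at 10000 nM, against 62.4 to 97.7 in DMSO. No treated well reached the DMSO range, and the log2(Fold Change) was -1.31 (SE 0.15, padj = 5.08e-08), -1.80 (SE 0.18, padj = 3.22e-09) and -1.94 (SE 0.14, padj = 9.88e-12). Under triptolide LTBR had 144, 143 and 116 CPM at 1000 nM and 132, 130 and 143 CPM at 10000 nM, all above DMSO after TMM scaling. Those differences of 0.74 and 0.71 (padj = 7.36e-06 and 4.91e-06) did not reach the fold for a call and became -1.72 and -2.10 under mitochondrial scaling. At 100 nM triptolide the value was -0.02 (padj = 0.904). LTBR overlaps SCNN1A on the opposite strand over 2686 bases, and SCNN1A had a DMSO median of 0.445 TPM.

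CD40 was called in no comparison with DMSO. Homoharringtonine gave log2(Fold Change) values of 0.53 (padj = 9.08e-05), 0.41 (padj = 0.00195) and 0.16 (padj = 0.160). Triptolide wells had 119, 108 and 93.5 CPM at 100 nM, where DMSO reached 63.4, the 108 resting on few counts in the shallow replicate 2. The difference of 0.97 (SE 0.12, padj = 1.29e-07) turned to -0.63 under mitochondrial scaling. It was called at 1.13 without replicate 3, a fit that keeps the shallow library. At 1000 and 10000 nM triptolide CD40 gave 0.25 and 0.52 after TMM scaling, and -2.23 and -2.28 under mitochondrial scaling.

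TNFRSF1B was near the limit of detection. The 18 DMSO wells held 188 counts together, and each triptolide dose held 1 count in its 3 wells. From the summed counts the ratio to DMSO was 0.101 (95% interval 0.00254 to 0.570) at 100 nM, 0.0656 (0.00165 to 0.370) at 1000 nM and 0.0483 (0.00122 to 0.272) at 10000 nM, all covering counting error only. edgeR called it lower at the 3 doses (padj = 0.0133, 0.00160 and 3.28e-04), and DESeq2 did not at 100 nM (padj = 0.165). Homoharringtonine wells held 63, 83 and 80 counts by dose, ratios of 2.22 (1.64 to 2.97), 2.23 (1.70 to 2.90) and 2.10 (1.60 to 2.74). The log2(Fold Change) was 1.10 (padj = 0.0235) at 100 nM and 1.08 (padj = 0.0184) at 1000 nM, both called, and 0.98 (padj = 0.0266) at 10000 nM, not called.

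Among the death-domain receptors, TNFRSF1A fell under both compounds. Triptolide wells had 70.6, 60.2 and 80.9 CPM at 100 nM, then 3.60, 4.42 and 4.93 CPM at 1000 nM and 5.73, 5.55 and 6.69 CPM at 10000 nM, against 117 to 171 in DMSO. No treated well overlapped DMSO, but the 60.2 CPM is the shallow replicate 2, where 3 counts make 36.1 CPM. That value rests on few counts. The log2(Fold Change) was -0.93 (SE 0.13, padj = 1.12e-06) at 100 nM, short of a call. It was called at -1.25 by library sizes, -1.29 with the replicate block, -2.61 under mitochondrial scaling and -1.02 without the low-count filter. Without replicate 3, a fit that keeps the shallow library, it was called at -1.02. At the higher doses it was -5.03 (SE 0.16, padj = 2.90e-18) and -4.63 (SE 0.14, padj = 1.06e-18), or 32.8-fold and 24.7-fold lower. Homoharringtonine wells had 83.9, 85.0 and 101 CPM at 100 nM, 41.1, 29.3 and 28.8 CPM at 1000 nM, and 23.4, 22.1 and 20.3 CPM at 10000 nM. They too stayed below all DMSO wells, with -0.66 (padj = 8.81e-06, not called), -2.12 (SE 0.13, padj = 1.19e-12) and -2.74 (SE 0.12, padj = 4.12e-16).

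TNFRSF21 was called in no comparison with DMSO, where its wells ranged from 17.5 to 28.5 CPM. Triptolide gave log2(Fold Change) values of -0.58 (padj = 0.00235), -0.20 (padj = 0.129) and -0.47 (padj = 2.94e-04), and homoharringtonine 0.24 (padj = 0.0440), -0.41 (padj = 0.00258) and -0.30 (padj = 0.0122). Its wells overlapped the DMSO wells in all 6 of these groups, although without DMSO replicate 10, whose 17.5 CPM rested on 10 counts, triptolide 10000 nM and homoharringtonine 1000 nM wells stood below the rest.

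TNFRSF10A passed the filter on low counts in no comparison. Homoharringtonine wells held 6, 13 and 16 counts by dose, against 1 in DMSO, ratios of 39.7 (95% interval 4.82 to 1827), 65.5 (9.84 to 2785) and 79.0 (12.3 to 3313), whose intervals are very wide. Triptolide wells held 0, 1 and 1.

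The decoy TNFRSF10D was scarce in DMSO, with 26 counts in 18 wells. Homoharringtonine wells held 13, 17 and 10 counts at 100 nM, 19, 30 and 17 at 1000 nM, and 26, 20 and 24 at 10000 nM. The ratio to DMSO was 10.2 (6.06 to 17.4), 12.8 (8.02 to 21.0) and 13.3 (8.37 to 21.7), with intervals for counting error only. No test is given, because it passed the filter on low counts only through the treated wells in which it was high, and at 100 nM it did not pass. In triptolide 100 nM wells it held 40, 0 and 5 counts, a ratio of 32.9 (19.9 to 55.5) that came mostly from replicate 1, and in the higher doses 6 and 7 counts in all. TNFRSF10A and TNFRSF10D belong to a cluster of similar genes on chromosome 8 with TNFRSF10B and TNFRSF10C, and RSEM divides shared reads between them by estimate, so their low values are uncertain.

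TNFRSF11B, osteoprotegerin, went down under homoharringtonine. Its wells had 2.17, 2.01 and 1.68 CPM at 100 nM, 1.14, 1.92 and 1.56 CPM at 1000 nM, and 2.68, 2.05 and 2.27 CPM at 10000 nM, against a DMSO median of 5.85 (1.75 to 8.43). All were below the DMSO wells once replicate 10, at 1 count, was left out, the next lowest being 3.26 CPM. The log2(Fold Change) was -1.52 (SE 0.26, padj = 2.00e-05), -1.88 (SE 0.28, padj = 2.17e-06) and -1.31 (SE 0.26, padj = 9.09e-05). Triptolide wells had 9.39, 9.07 and 18.9 CPM at 1000 nM and 15.9, 16.3 and 11.7 CPM at 10000 nM, above all DMSO wells. TNFRSF11B was called higher there, at 1.14 (SE 0.24, padj = 1.52e-04) and 1.32 (SE 0.21, padj = 4.46e-06), but the direction turned to -1.34 and -1.41 under mitochondrial scaling. The 1000 nM value dropped below a call, to 0.70, without replicate 3. At 100 nM the deep wells had 7.06 and 7.71 CPM, replicate 2 had 0 counts, and the difference was 0.35 (padj = 0.292).

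**Figure D3:**
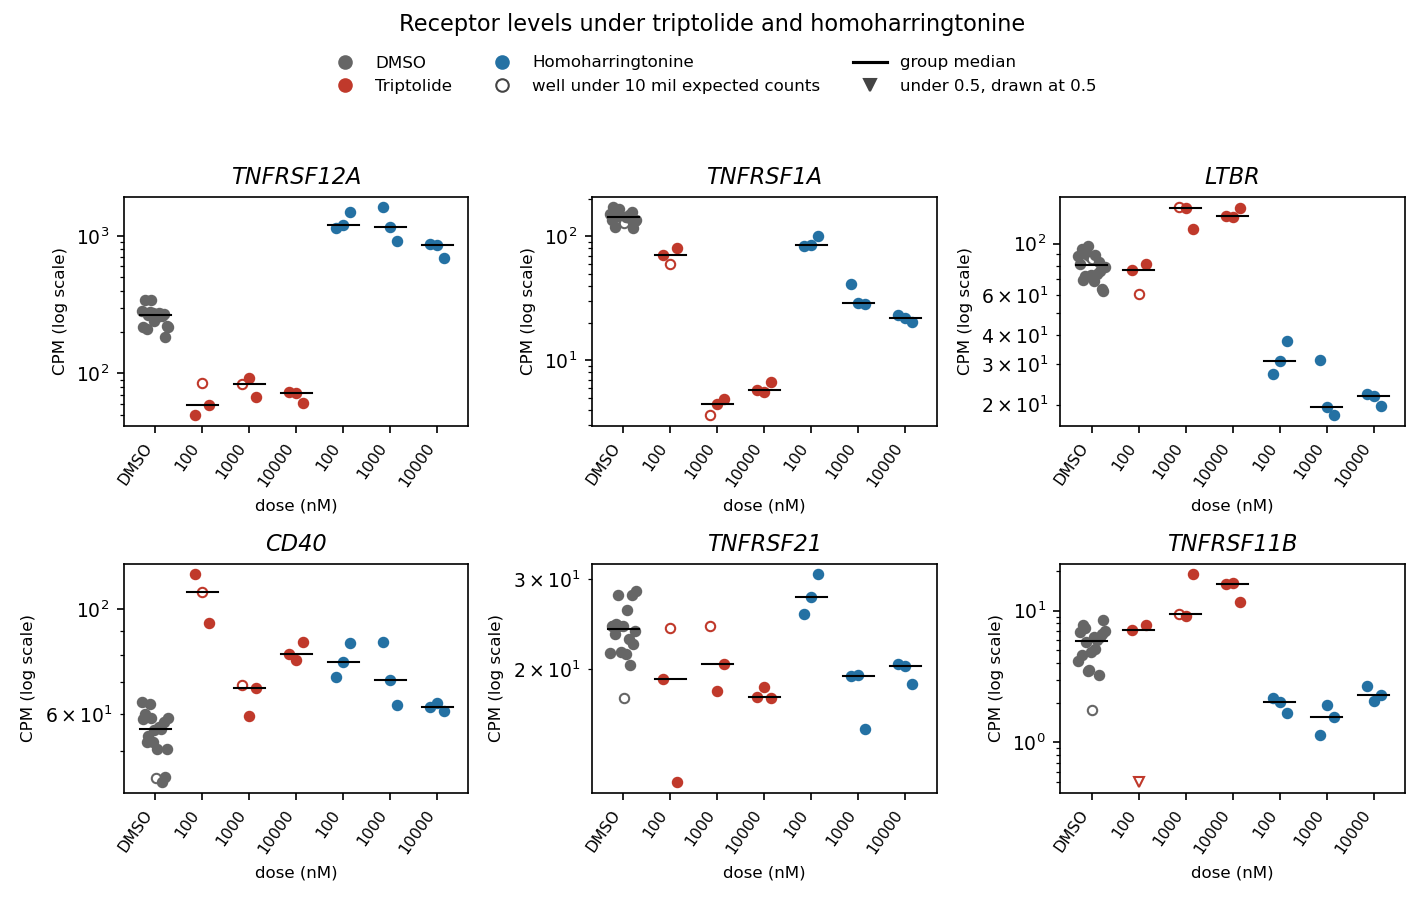
CPM of 6 of the receptors in DMSO, triptolide and homoharringtonine wells by dose, on log axes, where each point is a well, open points are libraries under 10 mil, triangles are wells under 0.5 CPM and bars are medians. TNFRSF12A stands above the DMSO wells in all homoharringtonine wells and below them in all triptolide wells, and LTBR stands below them in all homoharringtonine wells. LTBR and TNFRSF11B stand above the DMSO wells in triptolide 10000 nM wells, a direction that turns under mitochondrial scaling.

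Triptolide and homoharringtonine were also set against each other at each dose, a fit without the DMSO wells. Leaving out TNFRSF1B and TNFRSF10D, which rested on few counts, 7 members were tested, and 2 were higher and 2 lower under triptolide at 100 nM, 2 and 3 at 1000 nM, and 2 and 3 at 10000 nM. Over all genes 20.5% were higher and 27.4% lower at 100 nM, 22.6% and 35.9% at 1000 nM, and 30.2% and 37.9% at 10000 nM. The median of these 7 was -0.20, -0.17 and -0.08, beside -0.10, -0.31 and -0.17 for all genes. TNFRSF12A was lower under triptolide, with differences of -4.46 (padj = 1.18e-10), -3.95 (padj = 4.70e-06) and -3.49 (padj = 5.10e-10) on the log2 scale. TNFRSF9 was lower as well, with -4.10 (padj = 1.65e-10), -3.10 (padj = 1.32e-05) and -2.32 (padj = 9.07e-10). TNFRSF1A did not pass at 100 nM (-0.20, padj = 0.350) and was lower at the higher doses, with -2.93 (padj = 2.58e-05) and -1.80 (padj = 5.64e-08). LTBR was higher under triptolide by 1.36 (padj = 7.50e-06), 2.54 (padj = 4.48e-05) and 2.74 (padj = 2.08e-10), and TNFRSF11B by 1.95 (padj = 2.08e-05), 3.01 (padj = 2.31e-04) and 2.71 (padj = 4.00e-08). Mitochondrial scaling was run only against DMSO. There LTBR stood at -1.71, -1.72 and -2.10 under triptolide and -1.43, -1.81 and -2.25 under homoharringtonine. TNFRSF11B stood at -1.29, -1.34 and -1.41, and at -1.58, -1.98 and -1.53. On that scale LTBR stood lower under triptolide than under homoharringtonine at 100 nM, and close to it at 1000 and 10000 nM. TNFRSF11B stood close under the 2 compounds at 10000 nM. The size of both differences, and for LTBR at 100 nM the direction, therefore depended on the scaling. TNFRSF10D held 45, 6 and 7 counts in the triptolide wells and 40, 66 and 70 in the homoharringtonine wells, and TNFRSF1B 1, 1 and 1 against 63, 83 and 80.

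Within each compound the slope per 10-fold of dose was tested over the 9 treated wells, with a call at padj under 0.05. Homoharringtonine lowered 6 of 9 members tested with dose, where 22.9% of all genes fell and 21.1% rose. TNFRSF1A had the steepest slope, -1.05 (SE 0.11, padj = 5.00e-05), followed by TNFRSF12A at -0.36 (padj = 0.0172), LTBR at -0.33 (padj = 0.0281) and TNFRSF9 at -0.31 (padj = 0.00246). TNFRSF21 and CD40 had slopes of -0.28 (padj = 0.0324) and -0.20 (padj = 0.0345). No member rose with homoharringtonine dose in edgeR, with 0 at an unadjusted p under 0.05 and 0 in DESeq2. So TNFRSF9 and TNFRSF12A, although above DMSO at every dose, stood highest at the lower doses. The number of members called lower was 1 without replicate 2, 2 without replicate 3 and 2 by library sizes alone. Among 7 members tested in triptolide wells, TNFRSF1A fell with dose at a slope of -1.85 (SE 0.31, padj = 9.92e-04) and TNFRSF9 rose at 0.52 (SE 0.16, padj = 0.0306), beside 17.8% and 6.93% of all genes. Against DMSO TNFRSF1A stood at -0.93, -5.03 and -4.63 by dose, so its fall lay between 100 and 1000 nM and did not continue to 10000 nM. The TNFRSF9 slope lost its call when any 1 replicate number was left out.

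**Figure D4:**
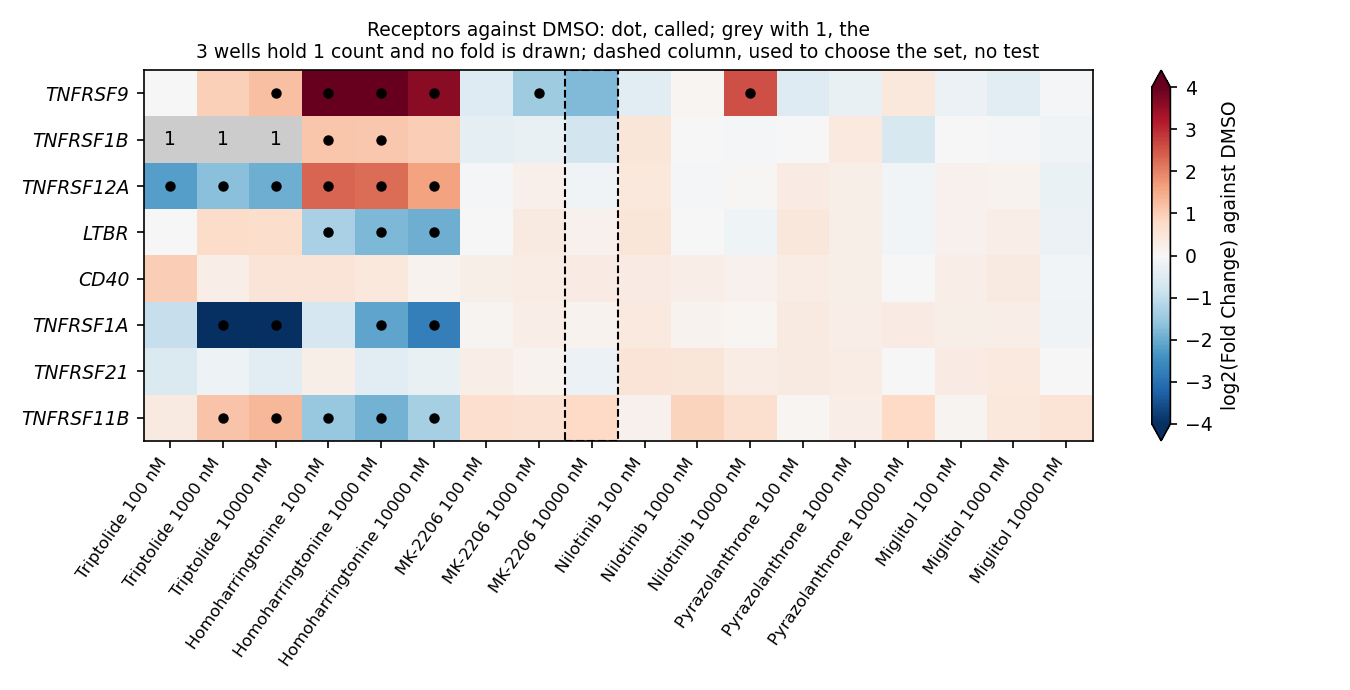
Heat map of the log2(Fold Change) of 8 of the receptors against DMSO for the 18 compound and dose groups, with a dot where called, grey with a 1 where the 3 wells hold 1 count, and a dashed outline around MK-2206 10000 nM, which was used to choose the set and has no test. TNFRSF9 is high in homoharringtonine (3.61 to 4.22) and in nilotinib 10000 nM (2.56) and low in MK-2206 1000 nM (-1.41). Triptolide values are after TMM scaling, and those above 0 turn below it under mitochondrial scaling.

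Outside triptolide and homoharringtonine, TNFRSF9 was the called member in the 2 comparisons that had a call. MK-2206 1000 nM gave 0 higher and 1 lower, where 0.194% and 0.0918% of genes were called and the members' median was 0.24 against -0.01. Nilotinib 10000 nM gave 1 higher and 0 lower, where 2.41% and 0.709% were called and the medians were 0.12 and 0.01. The other 9 tested comparisons gave 0 member calls in edgeR and 0 in DESeq2. At an unadjusted p under 0.05, 33 of their 72 member results passed, 29 higher and 4 lower. Over all genes tested 5.1% to 24.1% passed that threshold in these comparisons, and 15% with the comparisons pooled, against 45.8% of the member results, which share the DMSO wells. At the adjusted threshold, MK-2206 100 nM called 0.0054% higher and 0% lower, and nilotinib 0.702% and 0.778% at 100 nM and 0.745% and 0.383% at 1000 nM. Pyrazolanthrone called 0.342% and 0.581% at 100 nM, 0% and 0% at 1000 nM, and 0.589% and 0.568% at 10000 nM, and miglitol 0% in either direction at its 3 doses.

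Some of the uncalled members still stood apart from DMSO by small amounts. TNFRSF21 was above every DMSO well in nilotinib at 3 doses, with 29.9, 37.2 and 36.7 CPM at 100 nM, 33.5, 33.7 and 33.5 CPM at 1000 nM, and 28.9, 30.3 and 29.3 CPM at 10000 nM. Those differences were 0.53 (padj = 0.00222), 0.48 (padj = 0.00403) and 0.31 (padj = 0.0374), the last turning to -0.39 under mitochondrial scaling. Under that scaling the 100 nM value was called, at 1.02 (padj = 0.0130). TNFRSF11B gave 0.88 (padj = 0.0196) in nilotinib 1000 nM, called at 1.04 without replicate 2. It gave 0.65 (padj = 0.0472) in nilotinib 10000 nM, where the log2(Fold Change) was 0.0007 under mitochondrial scaling, and 0.79 (padj = 0.0262) in pyrazolanthrone 10000 nM. TNFRSF1A gave 0.40 (padj = 0.0159) in nilotinib 100 nM, 0.37 (padj = 0.0249) in pyrazolanthrone 100 nM and 0.32 (padj = 0.0281) in pyrazolanthrone 10000 nM, the last turning to -0.08 under mitochondrial scaling. LTBR gave 0.48 (padj = 0.0247) in nilotinib 100 nM and 0.45 (padj = 0.0377) in pyrazolanthrone 100 nM. CD40 gave 0.33 (padj = 0.0363) in nilotinib 100 nM, and TNFRSF21 gave 0.34 (padj = 0.0480) in pyrazolanthrone 100 nM. In miglitol no member had padj under 0.05 at any dose, and the smallest was 0.152 for TNFRSF21 at 1000 nM (0.41). MK-2206 at 1000 nM gave the other 7 tested members values between -0.30 and 0.61, none with padj under 0.05. At 10000 nM MK-2206, where 0.56% of all genes were called higher and 0.151% lower, they ranged as a description from -0.72 for TNFRSF1B to 0.79 for TNFRSF11B.

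The rest of the pathway was followed in 4 lists: 18 ligands, 19 other receptors, 14 adaptors and kinases, and 10 inhibitors and caspases. These lists were chosen with earlier results of these data known, so their counts and medians beside those of all genes are a description. Of the adaptors and kinases, all 14 tested, triptolide raised 0 and lowered 7, 9 and 9 by dose, and DESeq2 raised 0 and lowered 7, 8 and 8. At an unadjusted p under 0.05, edgeR gave 0, 1 and 1 higher. The share of all genes called higher was 11.4%, 13.9% and 16.2%, and the share called lower 20.9%, 30.4% and 30.2%. The list median was -1.03, -1.64 and -1.58 beside -0.16, -0.21 and -0.17 for all genes. FADD, the death-domain adaptor that recruits caspase-8, fell from 28.0 to 49.4 CPM in DMSO to at most 0.593 CPM at 10000 nM, a log2(Fold Change) of -6.24 (SE 0.21, padj = 2.72e-18). TRAF6, a ubiquitin ligase of the pathway, fell as well, with values of -3.09, -5.48 and -4.99, and so did MAP3K14, the kinase of the noncanonical NF-kappaB branch, with -2.16, -4.42 and -4.68. Homoharringtonine raised 5, 6 and 6 of these genes and lowered 1 at each dose, with list medians of 0.74, 0.85 and 0.95 beside -0.03, -0.01 and -0.05, where 15.6%, 21.5% and 23.6% of all genes were raised and 19.3%, 20.9% and 23.4% lowered. TRAF1, an adaptor that is itself an NF-kappaB target, rose by 7.33, 6.33 and 5.86, from 2.31 to 22.8 CPM in DMSO to 461 to 609 CPM at 100 nM. MAP3K14 rose by 2.92, 3.83 and 3.51. Nilotinib raised only TRAF1 among them, by 1.05 (padj = 0.0212), 1.34 (padj = 0.00483) and 5.0 (padj = 2.26e-15). Of all genes 0.702%, 0.745% and 2.41% were called higher by dose, and 0.778%, 0.383% and 0.709% lower. At 100 and 1000 nM the TRAF1 wells, 6.18 to 8.18 and 6.09 to 9.59 CPM, overlapped the DMSO wells through replicate 10 alone.

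Of the 10 inhibitors and caspases, all tested, homoharringtonine raised 3, 5 and 5 and lowered 0 at each dose. Of all genes 15.6%, 21.5% and 23.6% were raised and 19.3%, 20.9% and 23.4% lowered. The list medians were 0.57, 0.94 and 1.08 beside -0.03, -0.01 and -0.05. BIRC3, a ubiquitin ligase that restrains cell death at TNF receptors, rose by 5.35, 4.93 and 5.02. TNFAIP3, the ubiquitin-editing enzyme A20 that shuts off NF-kappaB, rose by 4.84, 5.81 and 5.95, and the deubiquitinase CYLD by 2.12, 2.41 and 2.58. Nilotinib 10000 nM raised 2 of them, BIRC3 by 4.0 (padj = 9.97e-09) and TNFAIP3 by 2.81 (padj = 3.11e-09). There 2.41% of all genes were called higher and 0.709% lower. Triptolide lowered 1, 5 and 7 and raised 0, where DESeq2 raised 0, 1 and 0. Of all genes 11.4%, 13.9% and 16.2% were raised and 20.9%, 30.4% and 30.2% lowered. The list medians were 0.17, -1.40 and -1.34 beside -0.16, -0.21 and -0.17. CASP8, the initiator caspase, fell at 1000 and 10000 nM, with values of -2.21 and -2.14.

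Of the 18 ligands 7 to 10 were tested. Homoharringtonine raised 3, 4 and 4 and lowered 4, 4 and 3, with list medians of -0.44, 0.24 and 0.19 beside -0.03, -0.01 and -0.05, where 15.6%, 21.5% and 23.6% of all genes were raised and 19.3%, 20.9% and 23.4% lowered. TNF itself stood at 0.671 to 1.09, 1.67 to 2.69 and 3.03 to 3.96 CPM by dose, against at most 0.0513 CPM in a DMSO well. LTB, a ligand of LTBR, stood at 0.349 to 0.791 CPM at 1000 nM and 1.13 to 1.29 CPM at 10000 nM, against at most 0.164 CPM in DMSO. TNF, LTB and LTA passed the filter on low counts only in comparisons whose treated wells held them, so they count among the raised ligands, and in the list medians, by construction and no test of them is given. Apart from them homoharringtonine raised TNFSF15 and TNFSF9 at 100 nM and TNFSF9 alone at 1000 and 10000 nM. TNFSF12, the ligand of TNFRSF12A, was called lower under homoharringtonine at the 3 doses, with a value of -2.75 at 100 nM. Under triptolide it was called higher, at 1.13 and 1.39 at 1000 and 10000 nM, values that turned to -1.39 and -1.42 under mitochondrial scaling. Nilotinib 10000 nM raised 3 ligands and lowered 0, where 2.41% and 0.709% of all genes were called: TNF, counted by construction, at 0.488 to 1.03 CPM, TNFSF4 by 1.67 (padj = 3.06e-04) and TNFSF15 by 1.61 (padj = 7.02e-04). Triptolide raised 3, 2 and 1 and lowered 2, 2 and 2, where 11.4%, 13.9% and 16.2% of all genes were raised and 20.9%, 30.4% and 30.2% lowered. The 3 at 100 nM include LTA, by the same construction. Under mitochondrial scaling each ligand raised at 1000 or 10000 nM, and TNFSF9 at 100 nM, turned below 0. The list medians were 0.84, 0.65 and 0.82, beside -0.16, -0.21 and -0.17. TNFSF9, the ligand of TNFRSF9, fell under triptolide, with values of -2.06 at 1000 nM and -4.42 at 10000 nM, from 8.86 to 28.0 CPM in DMSO to at most 0.870 CPM at the highest dose.

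Of the 19 other receptors 11 or 12 were tested. Homoharringtonine raised 3, 4 and 4 and lowered 3, 4 and 3, where 15.6%, 21.5% and 23.6% of all genes were raised and 19.3%, 20.9% and 23.4% lowered, with list medians of 0.48, 0.21 and 0.10 beside -0.03, -0.01 and -0.05. TNFRSF10B, a TRAIL receptor, was up by 2.05 at 100 nM and NGFR, the neurotrophin receptor, up by 1.98, 3.04 and 2.88. Triptolide raised 1, 0 and 0 and lowered 2, 3 and 3, where 11.4%, 13.9% and 16.2% of all genes were raised and 20.9%, 30.4% and 30.2% lowered, with list medians of -0.19, -0.38 and 0.02 beside -0.16, -0.21 and -0.17. NGFR was up by 2.65 at 100 nM (1.0 under mitochondrial scaling) and RELT, a receptor found mainly in lymphoid tissue, was down at the higher doses with values of -3.07 and -2.82. Nilotinib 10000 nM raised TNFRSF10B by 1.03 (padj = 9.90e-11), where 2.41% of all genes were called higher and 0.709% lower. MK-2206 1000 nM gave 0 calls in all 4 lists in edgeR, where 0.194% of all genes were called higher and 0.0918% lower.

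**Figure D5:**
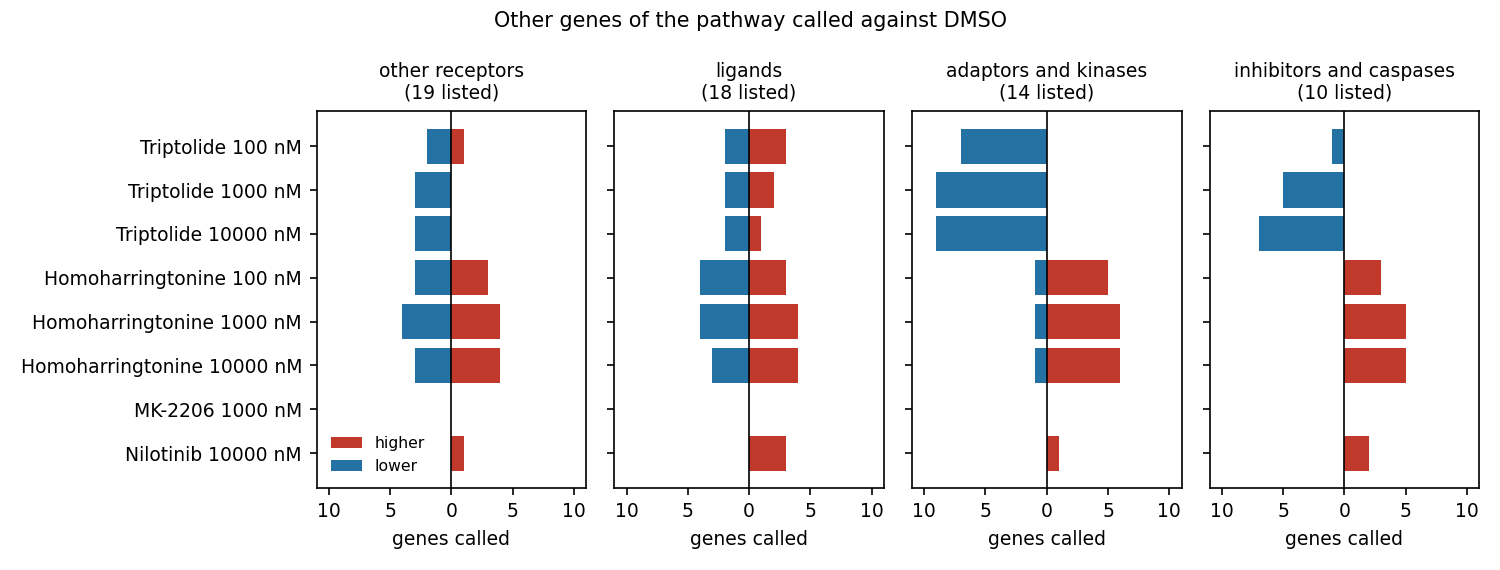
Number of genes called higher (right) and lower (left) against DMSO in 4 lists of other pathway genes, by compound and dose, as bars from 0. Triptolide lowers up to 9 of 14 adaptors and kinases and raises 0, and homoharringtonine raises up to 6 of them and 5 of 10 inhibitors and caspases. Of all genes, triptolide lowers up to 30.4% and raises up to 16.2%, and homoharringtonine raises up to 23.6%. The ligand bars include TNF, LTB and LTA, which passed the filter on low counts only through treated wells.

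Likeness of pattern was measured as Pearson's r of log2(group median CPM + 0.5) over the 19 groups, among 12647 protein-coding genes with a mean of at least 1 CPM, and is given as a description, since doses of a compound resemble each other. The 19 groups include MK-2206 10000 nM, which was used to choose the set. TNFRSF9 was most like NRIP3 (r = 0.937), AREG (0.935), IL23A (0.926), RAET1L (0.919) and CYLD (0.917). In DMSO, homoharringtonine 100 nM and nilotinib 10000 nM the group median of AREG, an EGF receptor ligand, was 2.90, 55.5 and 6.16 CPM, and that of IL23A, a cytokine subunit, was 0.225, 17.4 and 3.55 CPM. The gene most like TNFRSF12A was H3-3B (0.986), and LTBR was most like SSBP4 (0.988), TNFRSF1A like MID1IP1 (0.993) and TNFRSF11B like NHLRC3 (0.971). CD40, TNFRSF21 and TNFRSF1B were most like SNAP29 (0.906), KRTAP2-3 (0.900) and YRDC (0.968). Among the members themselves TNFRSF1B and TNFRSF12A were most alike (r = 0.957), while LTBR ran opposite to TNFRSF9 (-0.800) and to TNFRSF12A (-0.738). More strongly opposite were LTBR and TNFRSF10A (-0.902), and TNFRSF11B with TNFRSF12A (-0.843), TNFRSF1B (-0.824) and TNFRSF10A (-0.809). The values of TNFRSF1B and TNFRSF10A rest on few counts.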

How the data were processed

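U2OS cells from 72 wells were profiled by population RNA-seq (stranded poly(A) libraries). The authors ran RSEM and deposited, for each well, expected counts and TPM per Ensembl gene on GRCh38. Their processing notes also name HTSeq and DESeq2 without a role, and versions, annotation release and counting strand are not given in the sources used here. The genes were named with GENCODE 44, which held 56104 of the 60371 identifiers. No deposited column was left unmapped to a well.

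Expected counts were rounded to whole numbers, scaled by TMM and filtered by filterByExpr (smallest count 10). Each compound and dose was tested against the 18 DMSO wells with edgeR 4.0.16 (R 4.3.3) by the quasi-likelihood test, with Benjamini-Hochberg adjustment over all genes tested. Triptolide was tested against homoharringtonine at each dose, and the slope on log10 dose within each. Genes were called at padj under 0.05 with an absolute log2(Fold Change) over 1, and slopes at padj under 0.05 alone. CPM are TMM-scaled. Ratios of summed counts carry exact 95% intervals for counting error. Alternatives were DESeq2 1.42.0, other scalings and filters, leaving out wells, the replicate number as a block and, added after seeing the data, 1 fit over all wells for triptolide against homoharringtonine.

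Replicate numbers are shared between groups, but the labels do not say that they mark a plate or day. By the correlation of deviations from the group means, MK-2206 1000 nM had every pair above 0.1 over 3 pairs (lowest 0.349), so its blocked value is printed beside the result. The members and lists were chosen with earlier results of these data known. Every member called in a comparison is named for it, and members that were not called are named only in part. Of each other list up to 3 called genes a comparison could be named, those with the largest absolute change, and the genes of DMSO replicate 10 were chosen after their values were seen.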

Additional observations from a re-analysis of the deposited data

How the results depend on the processing

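Leaving out TNFRSF10D and MK-2206 10000 nM, the members gave 54 called values against DMSO, between the compounds or with dose, and 512 values under alternatives. Of these 468 kept direction and call, 41 kept direction and lost the call, and 3 reversed, all under triptolide with scaling to mitochondrial mRNAs: TNFRSF11B at 1000 nM (-1.34) and 10000 nM (-1.41) and TNFRSF9 at 10000 nM (-1.58). The cause was not tested. Scaling to mitochondrial mRNAs covered 29 of the 54 values, those against DMSO. Calls between the compounds or with dose were not put through it. The counts of members called higher or lower, here including TNFRSF1B and TNFRSF10D wherever they were tested, are given where an alternative moved them by more than 1.5 times, with the original number first, and smaller moves are not listed. Calls of TNFRSF10D in these counts are no test of it, since it passed the filter only through wells where it was high. Triptolide 100 nM higher, 0, became 1 without the low-count filter, without the shallow libraries and in the fit over all 72 wells, and 0 to 1 when a replicate was left out. The added call was TNFRSF10D each time, except CD40 without replicate 3. Lower, 2, became 1 in DESeq2, 3 with library sizes only or without the filter, 7 with mitochondrial scaling and 1 to 2 when a replicate was left out. Triptolide 1000 nM higher, 1, became 2 in DESeq2, without the shallow libraries and with the replicate block, 0 with library sizes only, mitochondrial scaling or 10 counts in every well, and 0 to 2 when a replicate was left out. Lower, 3, became 8 with mitochondrial scaling. Triptolide 10000 nM higher, 2, became 0 with library sizes only or mitochondrial scaling and 1 with 10 counts in every well, and lower, 3, became 8 with mitochondrial scaling. Homoharringtonine 100 nM higher, 3, became 5 without the filter, through TNFRSF10A and TNFRSF10D, and lower, 2, became 1 with 10 counts in every well. At 1000 nM higher, 4, or 3 without TNFRSF10D, became 2 with 10 counts in every well. Triptolide against homoharringtonine at 100 nM higher, 3, or 2 without TNFRSF10D, became 1 in DESeq2. Lower, 5, or 4 without TNFRSF10D, became 3 at 1000 and 10000 nM with 10 counts in every well, where fewer genes are tested. The rise with triptolide dose, 1, became 0 with the replicate block or when any replicate was left out, and the fall, 1, became 2 without the shallow libraries, through TNFRSF10D. The falls with homoharringtonine dose, 6, became 2 with library sizes only, 3 with the replicate block and 1 to 5 when a replicate was left out. The 2 calls of the other 4 compounds became 1 with the replicate block.

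The replicate block rests on numbers that the labels do not tie to a plate or day: outside MK-2206 1000 nM the lowest correlation of a pair ranged from -0.724 to 0.105, and only triptolide 100 nM, with 2 pairs, also had every pair above 0.1. Depth limits TNFRSF1B, TNFRSF10A and TNFRSF10D, and all members in triptolide 100 nM replicate 2.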
